A study of Mus musculus with 15 samples.

Results

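Lhx1 and Eomes are transcription factor genes whose transcripts were followed through removal and return of glial cell line-derived neurotrophic factor (GDNF) in cultured mouse spermatogonial stem cells. Members were the probe sets, the array's groups of oligonucleotides against a transcript, that the platform annotation assigns to Lhx1 or Eomes. They were 4 of the 45101 probe sets on the array, 2 for Lhx1 and 2 for Eomes. The probe set of each gene with the higher mean over all arrays is called its lead probe set. All 4 passed the filter on dim probe sets.

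The germ cell cultures were started from testes of C57BL/6 males aged 6 days, were enriched for spermatogonial stem cells, and grew in a defined medium without serum. In the withdrawal group, GDNF and its co-receptor GFRalpha1 were taken away for 18 h. In 3 replacement groups both proteins were given back for 2, 4 or 8 h after an 18 h withdrawal. The maintained cultures, before withdrawal, had GDNF, GFRalpha1 and bFGF (basic fibroblast growth factor) throughout. With 3 arrays a group, the 5 groups made up 15 arrays. No group was kept without the factors beyond 18 h, so time in culture and return of the factors cannot be told apart in the replacement groups. The labels do not say whether replicates were separate cultures, so the p-values measure only the spread between these arrays, which may be technical.

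LHX1 is a LIM homeodomain protein: its homeodomain binds DNA, and its LIM domains bind partner proteins, chiefly LDB1, which SSBP proteins stabilise. EOMES is a T-box protein. In the mouse embryo, Lhx1 is needed for head formation and for the nephric duct, and Eomes for the trophoblast, the mesoderm and the endoderm. In the postnatal mouse testis both transcripts are known from the spermatogonia that carry GFRalpha1 and its signalling partner RET, the population with stem cell activity, which depends on GDNF from somatic cells.

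The promoter windows of both genes are shown because both transcripts fell on withdrawal, so that their start regions can be compared. They run from 250 bases before to 50 bases after the start annotated by RefSeq on GRCm38.p6, 5′ to 3′ on the strand of the gene. Capitals mark every match, on either strand, to CCAAT, to the letters TGACGTC (the core of the cyclic AMP response element) or to TATATAA. The Lhx1 window is chr11:84525485-84525784 on the minus strand and the Eomes window is chr9:118477939-118478238 on the plus strand.
Lhx1: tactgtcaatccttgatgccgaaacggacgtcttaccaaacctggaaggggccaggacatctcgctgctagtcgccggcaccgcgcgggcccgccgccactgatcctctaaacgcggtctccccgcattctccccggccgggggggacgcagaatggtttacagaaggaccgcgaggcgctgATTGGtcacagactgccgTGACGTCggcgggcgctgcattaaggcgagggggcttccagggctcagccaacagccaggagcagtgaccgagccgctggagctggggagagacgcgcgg
Eomes: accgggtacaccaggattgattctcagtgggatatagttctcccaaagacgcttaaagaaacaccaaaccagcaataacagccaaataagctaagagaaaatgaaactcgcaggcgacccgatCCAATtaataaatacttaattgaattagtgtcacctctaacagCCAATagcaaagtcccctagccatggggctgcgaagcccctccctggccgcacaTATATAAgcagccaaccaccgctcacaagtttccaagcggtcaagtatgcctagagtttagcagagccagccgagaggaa

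Both windows differed in base composition: G and C made up 65.7% of the Lhx1 window and 47.3% of the Eomes window, against a median of 52.7% over all 32851 windows. Lhx1 held 1 CCAAT match, read as ATTGG and beginning 68 bases before the start, and Eomes held 2, at 127 and 84 bases before it. CCAAT occurred in 37.4% of all windows. TGACGTC stood once in the Lhx1 window, 50 bases before the start, and was in 3.21% of all windows. TATATAA stood once in the Eomes window, 30 bases before the start, and was in 3.24% of all windows. CCGGAAG (the ETS motif, 8.86% of windows), TAATTA (homeodomain, 5.29%), AGGTGTGA (T-box, 1.28%), CACGTG (E-box, 7.15%) and TATAAA (13.6%) had no match in either window. Both strands were searched, the 3 motifs with matches were added to the search after the sequences had been read, and a match is a run of letters, not a known binding site. The window of Lhx1os, a long noncoding RNA gene on the opposite strand, shared 225 bases with that of Lhx1, and the starts lay 126 bases apart. The TGACGTC of Lhx1 was the same genomic site as that of Lhx1os.

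Signals are MAS5 signals, in arbitrary units, scaled so that the 2% trimmed mean was 150 on every array. Array medians ran between 42.4 and 55.7, and the correlation of log2 values between arrays ran between 0.904 and 0.976. Replicate 3 of the withdrawal group stood apart in RNA quality, with a 3′ to 5′ actin ratio of 2.77 against 1.1 to 1.75 on the other arrays. The 10 germ cell markers such as Ddx4 and Dazl all passed the filter, and their summed signal was 13735 to 16060 in withdrawal cultures and 13107 to 15280 in maintained ones. It was 14692 to 14983 at 2 h, 14442 to 15837 at 4 h and 12778 to 14175 at 8 h of replacement. Trophoblast, lymphocyte and nephric lists were included because Eomes or Lhx1 is known from those cells. Of their markers, 5 of 10, 3 of 9 and 5 of 6 passed the filter, a mean log2 value equal to that of a signal of 30.5. No tested marker of these 3 lists was called in withdrawal against maintained cultures or at any replacement time against withdrawal, out of 5, 3 and 5 tested. In RNA from whole cultures, fewer cells of a type and less RNA per cell cannot be told apart.

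Both transcripts fell on withdrawal of GDNF and GFRalpha1, Lhx1 by 3.86-fold and Eomes by 2.19-fold at the lead probe sets. The lead Lhx1 probe set read 138.3, 112.7 and 91.2 in withdrawal cultures, against 403.1, 546.5 and 502.5 in maintained cultures. Every withdrawal array lay far below every maintained array. The means were 114 ± 23.6 in withdrawal and 484 ± 73.5 in maintained cultures (SD, n = 3 each), a log2 difference of -1.95 (SE 0.21, adjusted p = 0.000177), or 3.86-fold lower. The log2 scale here and below is log2(signal + 16), which understates changes of low signals. Folds are taken from these log2 differences, so they are smaller than the ratios of the printed mean signals. Adjusted p-values come from limma with Benjamini-Hochberg adjustment over 27022 probe sets. A probe set was called where this value was below 0.05.

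The other Lhx1 probe set was dimmer and fell as well. It read 70.5, 33.9 and 43.6 in withdrawal cultures, against 145.6, 138.7 and 160.9 in maintained cultures, and the groups did not overlap. Its log2 difference was -1.37 (SE 0.25, adjusted p = 0.00681), or 2.58-fold lower. Its fall was thus smaller on the log2 scale than that of the lead probe set, a difference that was not tested.

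Eomes fell in the same arrays. Its lead probe set read 181.6, 146.4 and 102.2 in withdrawal cultures, against 347.4, 286.5 and 344.3 in maintained cultures, again without overlap. The log2 difference was -1.13 (SE 0.19, adjusted p = 0.00414), or 2.19-fold lower. The other Eomes probe set read 179.3, 162.6 and 130.9 in withdrawal cultures, against 296.7, 282.3 and 335.3 in maintained cultures, with a log2 difference of -0.89 (SE 0.17, adjusted p = 0.00788). In both Eomes probe sets the lowest array was withdrawal replicate 3, the array with the high actin ratio. Without that array the log2 difference of the lead Eomes probe set was -0.93 and that of the lead Lhx1 probe set -1.82, and both remained called. All 4 member probe sets were called lower, whereas 2.08% of all tested probe sets were, and 4.42% were called in either direction. All 4 calls held whichever of the 15 arrays was left out, with a highest adjusted p of 0.0444. Fitted on the 6 arrays of both groups alone, the Eomes calls were lost, with adjusted p = 0.0579 at each probe set and the same differences.

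**Figure D1:**
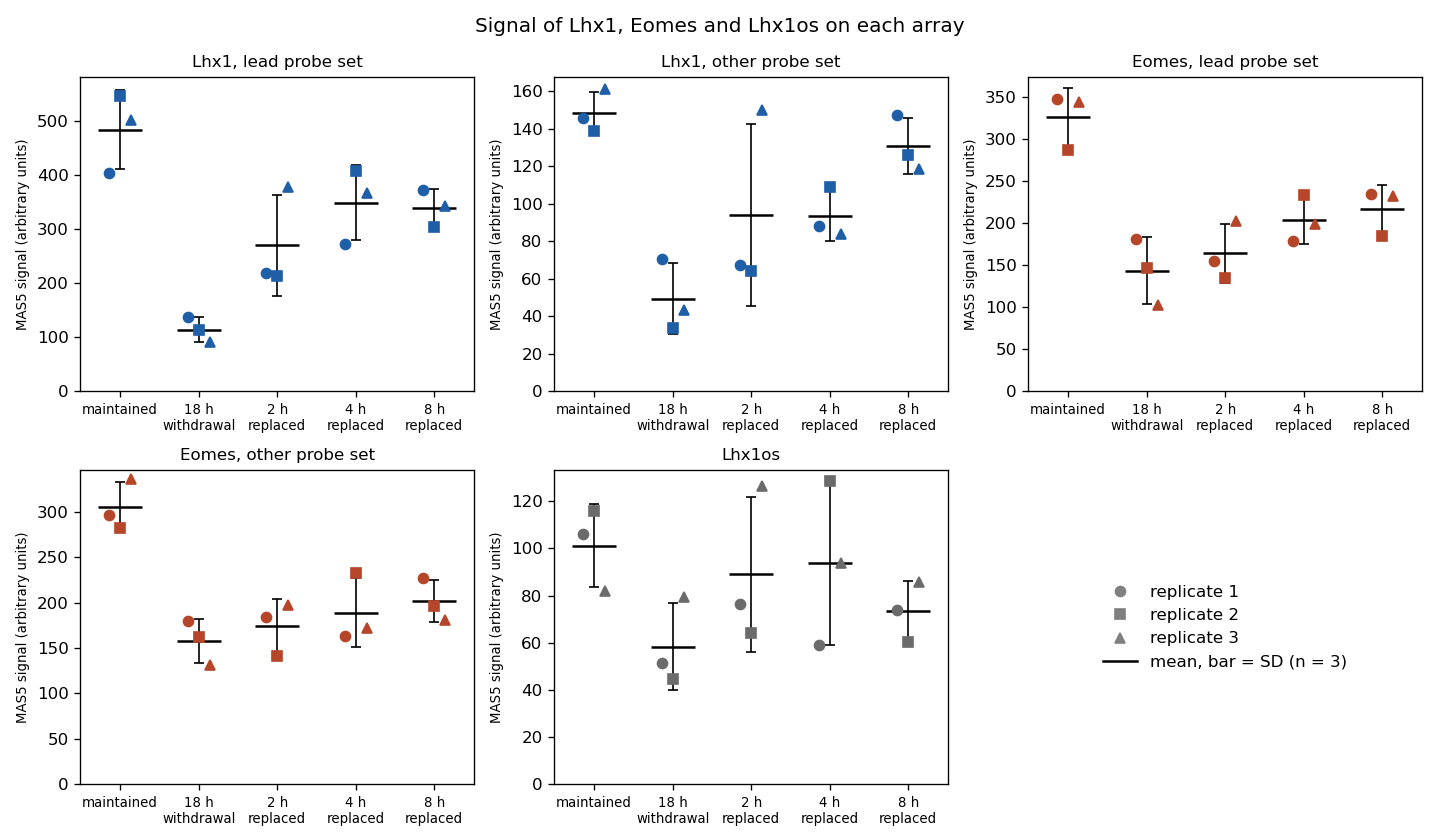
MAS5 signal (arbitrary units) of the 2 Lhx1 probe sets, the 2 Eomes probe sets and the Lhx1os probe set on each of the 15 arrays, by group. Points are arrays, horizontal lines group means and bars SD (n = 3). Withdrawal arrays of the lead Lhx1 probe set lie at or below 138.3 and maintained arrays at or above 403.1, and the lead Eomes probe set lies at or below 181.6 in withdrawal and at or above 286.5 in maintained cultures.

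Lhx1 was higher at 4 h and 8 h after return of the factors than after withdrawal, and had not passed the test at 2 h. At 2 h the lead Lhx1 probe set read 219.0, 213.8 and 377.1, against 138.3, 112.7 and 91.2 in withdrawal cultures. All 3 arrays lay above the withdrawal arrays, and replicate 3 stood well above the other 2. The log2 difference was 1.11 (95% interval 0.65 to 1.56), with adjusted p = 0.129. At that time 0.0407% of all tested probe sets were called, 11 in number and all of them higher, and none of the 4 member probe sets was among them. With a single probe set for each gene in the fit, which leaves fewer tests to adjust over, the adjusted p of Lhx1 was 0.0492. Without replicate 3 of the 2 h group the log2 difference was 0.85 (adjusted p = 0.358).

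At 4 h the lead Lhx1 probe set read 272.0, 407.2 and 367.3, against 138.3, 112.7 and 91.2 in withdrawal cultures, with no overlap. It rose 2.8-fold, a log2 difference of 1.49 (SE 0.21, adjusted p = 0.0087). It was the only member probe set called at this time, when 0.614% of all tested probe sets were called higher. The call rested on replicate 2 of the 4 h group, without which the log2 difference was 1.37 (adjusted p = 0.0517).

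At 8 h both Lhx1 probe sets were called higher, whereas 0.529% of all tested probe sets were. The lead probe set read 372.2, 303.2 and 342.8, against 138.3, 112.7 and 91.2 in withdrawal cultures, a log2 difference of 1.46 (SE 0.21, adjusted p = 0.00593), or 2.75-fold. This call held whichever array was left out, with a highest adjusted p of 0.0381. The other probe set read 147.2, 126.0 and 118.6, against 70.5, 33.9 and 43.6 in withdrawal cultures, a log2 difference of 1.20 (adjusted p = 0.0358). That call was lost without any one of 6 arrays, which were maintained replicate 3, withdrawal replicates 2 and 3, and each 8 h array (highest adjusted p = 0.135). Fitted on 2 groups alone, the lead probe set had adjusted p = 0.149 at 4 h and 0.0562 at 8 h, and the other probe set 0.112 at 8 h.

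The same other Lhx1 probe set read 67.2, 64.4 and 149.7 at 2 h and 87.9, 108.7 and 84.0 at 4 h. Its 2 h group overlapped with the withdrawal group, since 2 of its arrays lay below the highest withdrawal array. The log2 differences from withdrawal were 0.70 (adjusted p = 0.574) and 0.78 (adjusted p = 0.142).

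Eomes was not called against withdrawal at any replacement time by either probe set. The lead probe set read 154.6, 135.0 and 202.9 at 2 h, 178.3, 233.5 and 198.9 at 4 h, and 235.0, 184.3 and 231.6 at 8 h, against 181.6, 146.4 and 102.2 in withdrawal cultures. The 2 h and 4 h arrays overlapped with the withdrawal arrays, and all 8 h arrays lay above them, the lowest by a small margin. The log2 differences from withdrawal were 0.19 at 2 h (adjusted p = 0.845), 0.49 at 4 h (adjusted p = 0.225) and 0.57 at 8 h (95% interval 0.16 to 0.98, adjusted p = 0.192). The other Eomes probe set read 141.1 to 197.3 at 2 h, 162.7 to 232.5 at 4 h and 181.2 to 226.9 at 8 h, against 130.9 to 179.3 in withdrawal cultures, and again the groups were apart only at 8 h. Its log2 differences were 0.13, 0.23 and 0.33 at the 3 times (adjusted p = 0.883, 0.512 and 0.435). The 8 h interval of that probe set was -0.03 to 0.69. After adjustment over all probe sets, no rise of Eomes within 8 h was detectable with 3 arrays a group.

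Against maintained cultures, Eomes was still lower at 2 h of replacement. Its lead probe set had a log2 difference of -0.94 (adjusted p = 0.0315) and the other one -0.76 (adjusted p = 0.043), when 0.503% of all tested probe sets were called lower. The lead call was lost without any one of the maintained arrays or of replicates 1 and 2 of the 2 h group, and the other call without any one of 12 arrays. The lead Lhx1 probe set had a log2 difference of -0.84 (adjusted p = 0.0792), which became -1.10 (adjusted p = 0.0205) without replicate 3 of the 2 h group. Without that array the other Lhx1 probe set moved to -1.01 (adjusted p = 0.0491), against -0.67 (adjusted p = 0.249) with it. At 4 h and 8 h no member probe set was called against maintained cultures, where 0.359% and 0.192% of all tested probe sets were called, and the member differences ran between -0.66 and -0.17.

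**Figure D2:**
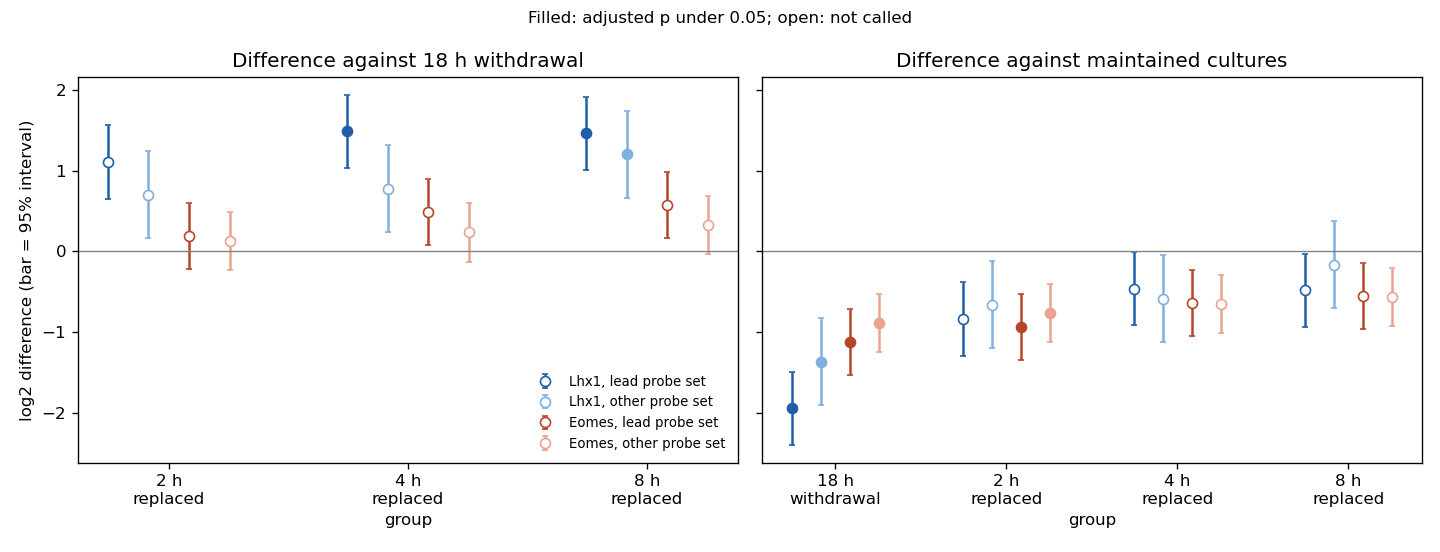
Log2 differences (y axis) of the 4 member probe sets, on the left for 2, 4 and 8 h of replacement against 18 h withdrawal and on the right for withdrawal and replacement against maintained cultures. Bars are 95% intervals not adjusted for the number of tests, and filled points have adjusted p under 0.05. The lead Lhx1 probe set is called at 4 h (1.49) and 8 h (1.46) against withdrawal, and both Eomes probe sets are open at all 3 times.

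At the lead probe sets, the order of levels differed between both genes only in the place of the 4 h and 8 h groups. The lead Lhx1 probe set averaged 114 in withdrawal, 270 at 2 h, 339 at 8 h, 349 at 4 h and 484 in maintained cultures. The lead Eomes probe set averaged 143 in withdrawal, 164 at 2 h, 204 at 4 h, 217 at 8 h and 326 in maintained cultures. No pair of neighbours in either order passed the test, although the 2 h and withdrawal arrays of Lhx1 did not overlap, nor the 8 h and maintained arrays of Eomes. The other Lhx1 probe set averaged 93.8 at 2 h, 93.5 at 4 h and 130.6 at 8 h. It thus had 8 h above 4 h, as Eomes did (log2 difference 0.42, adjusted p = 0.468). Between replacement times no member probe set was called, neither at 4 h against 2 h (0.829% of all tested probe sets called) nor at 8 h against 2 h (0.807%). At 8 h against 4 h limma called 0 probe sets of any gene, with 3602 at an unadjusted p under 0.05.

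The part of the withdrawal fall that had been regained describes both genes on a common scale. The lead Lhx1 probe set had regained 56.8% of its log2 fall at 2 h (95% Fieller interval 36.3 to 78.1), 76.3% at 4 h (56.0 to 99.6) and 75.0% at 8 h (54.8 to 98.2). The lead Eomes probe set had regained 16.9% at 2 h (-24.8 to 48.5), 43.1% at 4 h (7.97 to 76.0) and 50.7% at 8 h (16.8 to 84.7). The other probe sets gave 51.4%, 56.8% and 87.7% for Lhx1 and 14.5%, 26.2% and 37.0% for Eomes. These shares all use the same withdrawal and maintained arrays, and the intervals of both genes overlapped at each time.

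The difference between both responses was tested on the log2 value of the lead Lhx1 probe set minus that of the lead Eomes probe set on the same array. Only its change between groups carries meaning, since probe sets differ in brightness. It was -0.36, -0.34 and -0.14 on the withdrawal arrays, against 0.21, 0.89 and 0.53 on the maintained arrays. It was 0.46, 0.61 and 0.84 at 2 h, 0.57, 0.76 and 0.83 at 4 h, and 0.63, 0.67 and 0.54 at 8 h. Every withdrawal array lay below every array of the other 4 groups.

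Lhx1 changed by -0.82 more than Eomes on withdrawal (95% interval -1.18 to -0.46), and on replacement by 0.92 more at 2 h (0.56 to 1.27), 1.00 more at 4 h (0.64 to 1.36) and 0.89 more at 8 h (0.53 to 1.25). The exact two-sided permutation p of each of these 4 was 0.1, the smallest that 3 arrays against 3 allow, so none could pass a threshold of 0.05. It was 0.25 when adjusted over the 10 pairs of groups compared. All 4 differences use the same 3 withdrawal arrays, so they are not independent results. Against maintained cultures the differences were 0.10 at 2 h, 0.18 at 4 h and 0.07 at 8 h (exact permutation p = 0.8, 0.6 and 0.7). The choice of probe sets mattered: with the other Lhx1 probe set and the lead Eomes probe set the withdrawal difference was -0.24 (exact permutation p = 0.4), and that at 2, 4 and 8 h 0.51, 0.29 and 0.63 (exact permutation p = 0.2, 0.3 and 0.1). Over all 4 pairs of probe sets it lay between -1.06 and -0.24 on withdrawal and between 0.29 and 1.25 on replacement, with the same sign throughout.

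**Figure D3:**
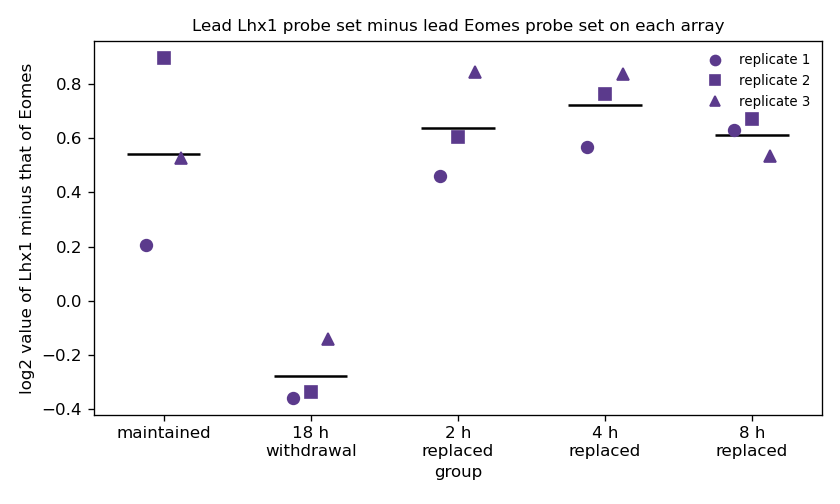
Log2 value of the lead Lhx1 probe set minus that of the lead Eomes probe set on each of the 15 arrays, by group, with group means as lines and 1 symbol per replicate. The 3 withdrawal arrays lie between -0.36 and -0.14, below the other 12 arrays, which lie between 0.21 and 0.89.

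Lhx1os, the noncoding neighbour of Lhx1, was read by 1 probe set, and the strand its oligonucleotides match was not checked here. It read 51.3, 44.5 and 79.2 in withdrawal cultures, against 106.0, 115.7 and 81.8 in maintained cultures, a log2 difference of -0.67 (adjusted p = 0.163). The ranges did not overlap, although the highest withdrawal array came close to the lowest maintained one. It was not called in any of the 10 comparisons. Its highest array at 2 h, 126.4 against 76.6 and 64.2, was replicate 3, the array that was also highest for all 4 member probe sets in that group.

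Over the 15 arrays the log2 values of the Lhx1 probe sets correlated at 0.906 and those of the Eomes probe sets at 0.938. The lead Lhx1 and lead Eomes probe sets correlated at 0.849, and at 0.737 after group means were removed, so both also varied together among replicates. The lead Lhx1 probe set and Lhx1os correlated at 0.671. All these values share the same arrays and their scaling. Among 22866 probe sets of other genes, the lead Eomes probe set ranked 94 by its correlation with Lhx1, and Lhx1 ranked 102 by its correlation with Eomes.

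The 8 genes closest to Lhx1 by Pearson r over the 15 arrays were Egr2 (0.956), Nefm (0.955), Spred1 (0.954), Sgk3 (0.945), Arhgap31 (0.942), Ccnd2 (0.938), Nim1k (0.938) and Hsd17b12 (0.935). Egr2, an immediate early zinc finger transcription factor, averaged 191 ± 46.8 in withdrawal and 1007 ± 116 in maintained cultures (log2 difference -2.32, adjusted p = 2.65e-05), and 748 ± 166 at 2 h of replacement. This Egr2 probe set was called higher against withdrawal already at 2 h (log2 difference 1.88, adjusted p = 0.000617), which the lead Lhx1 probe set was not. The contrast between both genes was not tested, and another Egr2 probe set was not called even at 8 h (0.64, adjusted p = 0.519). Egr2 also followed Lhx1 among replicates, with r = 0.914 after group means were removed. Nefm encodes the medium neurofilament chain, Spred1 an inhibitor of Ras signalling to MAP kinase, Ccnd2 cyclin D2 and Sgk3 a serine/threonine kinase. The probe sets closest to Lhx1 were called lower on withdrawal for all 8 genes, where log2 differences ran between -2.32 and -0.82. Since they were picked by r with Lhx1 over these same arrays, the shared fall largely follows from the choice. Of all tested probe sets, 2.08% were called lower on withdrawal. At least 1 other probe set each of Spred1, Arhgap31, Ccnd2, Sgk3 and Egr2 was not called in that comparison, and 1 of Spred1 differed by 0.14 (adjusted p = 0.815).

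The 8 genes closest to Eomes were Ptpn13 (0.947), Nrros (0.944), Cxcr4 (0.940), Hoxb6 (0.932), Med14 (0.931), Pnp (0.930), Id4 (0.930) and Mrpl18 (0.925). No gene was among the 8 closest to both. Cxcr4, the receptor of the chemokine CXCL12, averaged 77.1 ± 9.98 in withdrawal and 393 ± 42.4 in maintained cultures (log2 difference -2.14, adjusted p = 0.000177). Id4, an inhibitor of helix-loop-helix factors known from spermatogonial stem cells, had a log2 difference of -1.82 (adjusted p = 9.8e-05) on withdrawal and of 1.03 (adjusted p = 0.017) at 8 h against withdrawal. Hoxb6 is a homeobox transcription factor, Pnp a purine phosphorylase, Med14 a subunit of the Mediator complex and Mrpl18 a protein of the mitochondrial ribosome. All 8 were called lower on withdrawal, between -2.14 and -0.63, where 2.08% of all tested probe sets were. At 8 h against withdrawal 3 of them, Cxcr4, Med14 and Id4, were called higher by the probe set closest to Eomes. At that time 0.529% of all tested probe sets were called higher. Since the 8 genes were picked by r with Eomes over these same arrays, neither count is independent of the choice, and the shared fall largely follows from it. The other Id4 probe sets were called lower on withdrawal too, but at 8 h they differed by 0.49 (adjusted p = 0.287) and 0.52 (adjusted p = 0.405) and were not called. None of the other Med14 probe sets was called at 8 h, between 0.083 and 0.76. At least 1 other probe set each of Med14 and Ptpn13 was not called on withdrawal. The order of closeness depended on the measure, and of both lists only Hsd17b12, for Lhx1, stayed among the closest 8 when r was taken over the 5 group means.

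**Figure D4:**
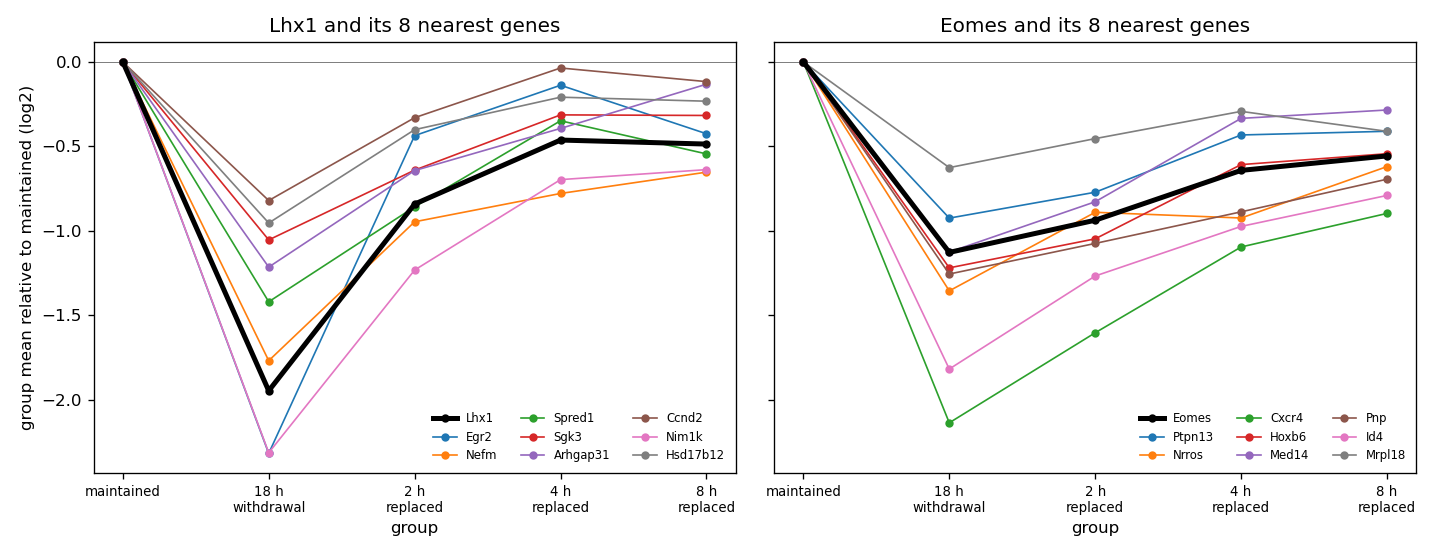
Group means relative to the maintained group (log2, y axis) across the 5 groups for Lhx1 and its 8 nearest genes (left) and Eomes and its 8 nearest genes (right), with the member as a thick black line. Each gene is 0 in maintained cultures and below 0 after withdrawal, with Lhx1 at -1.95 and Eomes at -1.13. The nearest genes were picked by r over these same arrays.

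Of the gene families, Lhx1 and Eomes were the only tested members called lower on withdrawal. The LIM homeodomain list held 22 genes, namely LIM homeodomain genes, LIM-only genes and the cofactors of the LIM domain, of which 17 had a lead probe set that passed the filter. Apart from Lhx1, 0 of 16 were called lower and 1 higher, with a median log2 difference of 0.041, against 0.058 over the lead probe sets of all 13083 genes tested. The gene called higher was Lmo1, a LIM-only protein that competes for LDB1, at 138 ± 12.8 in withdrawal and 69.4 ± 8.17 in maintained cultures (log2 difference 0.85, adjusted p = 0.0161). The partners of LHX1 were not called: Ldb1 averaged 499 ± 55.8 in withdrawal and 400 ± 103 in maintained cultures (log2 difference 0.33, adjusted p = 0.453), and Ssbp3 differed by 0.15 (adjusted p = 0.582). Lhx4 at 1.04 (adjusted p = 0.126) and Lmo2 at -0.99 (adjusted p = 0.133) were the extremes among genes not called. Lhx2, Lhx3, Lhx6, Isl1, Isl2, Lmx1a, Ldb2, Lmo4, Ssbp2, Ssbp4 and Rlim lay between -0.37 and 0.33, and Lhx5, Lhx8, Lhx9, Lmx1b and Lmo3 were too dim to be tested. At 2, 4 and 8 h against withdrawal none of these 16 genes was called.

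Few T-box genes gave enough signal for a test. Of 17 genes listed, 15 had a probe set of that symbol alone and 6 passed the filter, which were Eomes, Tbx3, Tbx6, Tbx19, Tbx20 and Mga. Apart from Eomes, 0 of 5 were called on withdrawal or at any replacement time against withdrawal. All 5 withdrawal differences were above 0, between 0.08 and 0.62, with a median of 0.352 against 0.058 over all genes. After quantile normalization that of Tbx20 was -0.019. Mga, which carries a T-box and pairs with MAX, had a log2 difference of 0.62 (adjusted p = 0.145). Tbr1 and Tbx21, the closest paralogs of Eomes, averaged 6.33 and 9.10 in withdrawal cultures, against 9.67 and 13.9 in maintained cultures, all under the filter, so neither was tested.

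**Figure D5:**
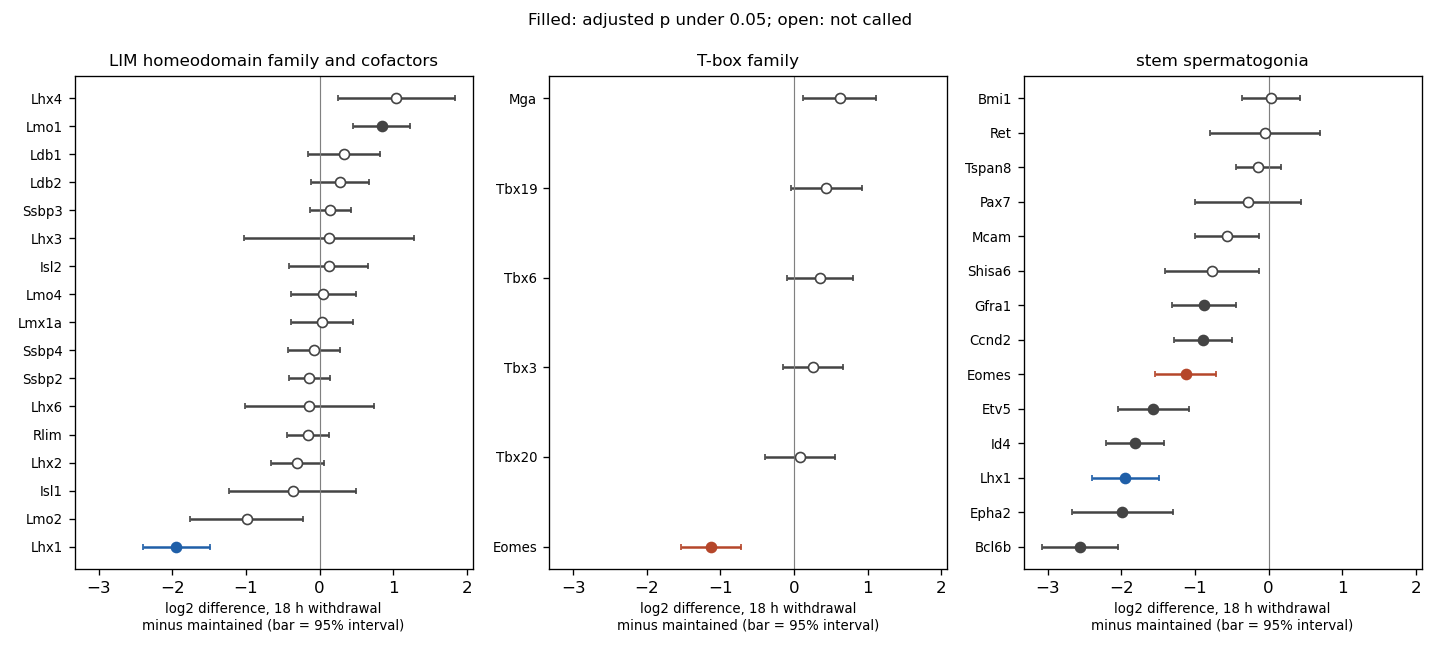
Log2 differences between 18 h withdrawal and maintained cultures (x axis, bars are 95% intervals) for the tested genes of the LIM homeodomain, T-box and stem spermatogonia lists, 1 gene per row by its lead probe set. Filled points have adjusted p under 0.05. Lhx1 at -1.95 and Eomes at -1.13 are the only filled points below 0 in their families, and Lmo1 at 0.85 is the only one above 0.

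Lhx1 and Eomes are themselves on the list of stem spermatogonia markers, so the other genes of that list are given without them. Of 12 tested, 6 fell on withdrawal and 0 rose, with a median log2 difference of -0.824, against 0.058 and 5.66% called in either direction over all 13083 genes. The lists were chosen with earlier results of these data known, so this count and those of other lists may not be independent of them. The genes that fell were Bcl6b (-2.57), Epha2 (-1.99), Id4 (-1.82), Etv5 (-1.57), Ccnd2 (-0.89) and Gfra1 (-0.87). Another Etv5 probe set was not called on withdrawal (-1.28, adjusted p = 0.0959). Nor were Ccnd2 probe sets at -0.70 and -0.67 (adjusted p = 0.121 and 0.149), while further probe sets of both genes were called lower. Bcl6b and Etv5 encode transcription factors known to respond to GDNF, Epha2 an ephrin receptor and Gfra1 the GDNF co-receptor itself. Ret, Pax7, Shisa6, Tspan8, Mcam and Bmi1 were not called. At 2 h against withdrawal none of the 12 was called, when 0.0688% of all genes were, and the median was 0.408. At 4 h and again at 8 h 4 of the 12 rose (Bcl6b, Epha2, Etv5 and Id4), when 1.09% and 1.41% of all genes were called. At 2 h the log2 differences of these 4 were already 1.20, 1.22, 1.23 and 0.55 (adjusted p = 0.156, 0.414, 0.11 and 0.532). At 8 h their log2 differences were 2.10, 1.91, 1.59 and 1.03, which the 1.46 of Lhx1 lay among and the 0.57 of Eomes, not called, lay below. The Etv5 probe set that was not called on withdrawal was not called at 8 h either (1.62, adjusted p = 0.0787). Nor were the other Id4 probe sets given above.

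Of 13 tested genes of progenitor and differentiating spermatogonia, 5 rose and 1 fell on withdrawal, with a median of 0.336. Of all genes, 5.66% were called in either direction. The 5 were Upp1 (1.69), Sox3 (1.64), Neurog3 (1.57), Sohlh1 (1.37) and Dmrt1 (0.56), and the 1 was Ccnd3 (-0.55). Neurog3 and Sox3 encode transcription factors of undifferentiated progenitors. At 8 h against withdrawal 2 of 13 fell, Upp1 (-1.22) and Dnmt3b (-0.69), when 1.41% of all genes were called in either direction.

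Of the genes that work with or downstream of Lhx1 and Eomes in the mouse embryo, 8 of 17 with a probe set passed the filter. Of these 8, 2 fell on withdrawal, when 5.66% of all genes were called in either direction. Foxa2, a forkhead factor of the node and definitive endoderm, averaged 103 ± 11.7 in withdrawal and 223 ± 32.7 in maintained cultures (95% interval of the log2 difference -1.36 to -0.65, adjusted p = 0.00342). Hhex, a homeobox factor of the anterior endoderm, averaged 518 ± 114 in withdrawal and 1020 ± 111 in maintained cultures (log2 difference -0.97, adjusted p = 0.00267). At 8 h against withdrawal neither was called, at 0.20 (adjusted p = 0.663) and 0.46 (adjusted p = 0.191). Nodal, Lefty1, Mixl1, Mesp1, Mesp2 and Sox17 were not called on withdrawal, and Otx2, Gsc, Cer1 and Tdgf1 were among those too dim to be tested.

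Markers of fibroblasts differed between the replacement groups. The summed signal of 12 fibroblast markers was 4744 to 8598 at 2 h, 12324 to 16073 at 4 h and 13427 to 16203 at 8 h of replacement, against 7569 to 10632 in withdrawal cultures. In maintained cultures it was 7061 to 10702, close to the withdrawal range. Of 11 tested, Col3a1 was called higher against withdrawal at 4 h (log2 difference 1.19, adjusted p = 0.0402). Postn was called higher against withdrawal at 8 h (1.07, adjusted p = 0.0468), and both are extracellular matrix genes. Of all genes, 1.09% and 1.41% were called at these times. Against 2 h of replacement, 5 of 11 were called higher at 4 h (median log2 difference 1.16) and 5 at 8 h (1.12). In these comparisons 1.16% and 1.09% of all genes were called. The 2 h array with the highest Lhx1 and Eomes, replicate 3, had the lowest fibroblast sum, 4744. In each other group the array with the highest fibroblast sum had the lowest lead Lhx1 signal. These were maintained replicate 1 (sum 10702, Lhx1 403.1) and withdrawal replicate 3 (10632, 91.2). At 4 h it was replicate 1 (16073, 272.0) and at 8 h replicate 2 (16203, 303.2). Lead Eomes was also lowest on those withdrawal, 4 h and 8 h arrays, but highest on that maintained array. Lum, whose mean lay under the filter, was the dimmest of the 12, and their part in the Lhx1 and Eomes levels of any group was not tested. Of the germ cell list, 2 of 10 rose on withdrawal, Zbtb16 (0.77) and Foxo1 (0.75), when 5.66% of all genes were called in either direction. Foxo1 fell at 8 h against withdrawal, although another probe set of each gene was not called on withdrawal. Sertoli cell markers summed to 668 to 719 in withdrawal and 544 to 561 in maintained cultures, with 0 of 8 tested called. The 1 Leydig cell gene called was Cyp11a1 at 8 h (1.30, adjusted p = 0.0461), and 0 of 4 endothelial and blood markers were called.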

How the data were processed

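Total RNA of 15 mouse culture samples in 5 groups was measured on single-colour Affymetrix arrays, and the deposited table holds MAS5 signal intensity per probe set, made by the authors with MAS5 per the submitters' processing notes. Its version, its scaling target and a genome build are not stated there. Probe sets were named from GEO's platform annotation: 34958 had 1 gene symbol, 932 several and 9211 none. Intensities were taken to log2(signal + 16) with no further normalization. The 64 control probe sets and the dimmest 40% by mean log2 value (under that of a signal of 30.5) were left out, which left 27022. One limma model (version 3.58.1, R 4.3.3; lmFit, eBayes with trend) held all 15 arrays with 1 coefficient per group and 10 residual degrees of freedom, and p-values were adjusted within each comparison by Benjamini-Hochberg. The code was tested on simulated data. Lhx1-minus-Eomes intervals came from a linear model of that difference over the 15 arrays. Named were all member probe sets, the 8 nearest genes of each lead probe set, tested genes of the LIM homeodomain and T-box lists, and up to 5 called genes of each other list, with list genes read by their lead probe set. Other genes were named after their values were seen where a count needed them. Members and lists were chosen with earlier results of these data known. For arrays, their number limits the precision. Promoters were RefSeq windows, and proteins were not used here.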

Additional observations from a re-analysis of the deposited data

How the results depend on the processing

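Withdrawal against maintained calls of Lhx1 and Eomes stayed under other pseudocounts, no filter, quantile normalization and 1 probe set per gene. Replicate numbers did not pair the arrays: correlations of deviations between same-numbered arrays ran between -0.227 and 0.448 over the 10 comparisons, and an array matched its own number best in 10 of 30 cases. With the replicate block, the other Eomes probe set at 2 h against maintained kept -0.76 and lost its call (adjusted p = 0.0629), and no other member call changed. Where calls or signs changed, the cause was not tested. A fit on 2 groups has fewer arrays, and 1 probe set per gene has fewer tests, and the part of either in the changes was not tested.

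Fitted on the 2 groups alone, the calls numbered 200 for withdrawal against maintained (1195 otherwise), 0 (11), 4 (237) and 8 (278) for 2, 4 and 8 h against withdrawal, 121 (286) and 27 (97) for 2 and 4 h against maintained, and 70 (224) and 369 (218) for 4 and 8 h against 2 h. In those fits, differences that lost their call were -1.13 and -0.89 for Eomes on withdrawal, 1.49 and 1.46 for lead Lhx1 at 4 and 8 h, 1.20 for the other Lhx1 probe set at 8 h, and -0.94 and -0.76 for Eomes at 2 h against maintained. Without the filter the counts were 94 and 182 for 4 h against withdrawal and 2 h against maintained, and 136 and 144 for 4 and 8 h against 2 h, and the calls of the other Lhx1 probe set at 8 h (1.20) and the other Eomes probe set at 2 h against maintained (-0.76) were lost. Quantile normalization gave 425 calls at 8 h against withdrawal, and log2(signal + 64) gave 1 at 8 h against 4 h. With 1 probe set per gene, Lhx1 was called at 2 h against withdrawal (1.11) and maintained (-0.84).

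Signs of small, uncalled differences turned. Quantile normalization gave -0.019 for Lmo4 (0.049 otherwise), -0.059 for Lmx1a (0.033) and -0.019 for Tbx20 (0.078) on withdrawal, and 0.017 for Lhx1 minus Eomes at 8 h against 2 h (-0.025). Other probe set pairs, added after seeing the data, gave for Lhx1 minus Eomes -0.079 at 2 h against maintained, -0.22 and -0.029 at 4 h against 2 h, 0.34 and 0.33 at 8 h against 4 h, and 0.16, 0.12 and 0.30 at 8 h against 2 h.

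Leaving out 1 array at a time, the calls numbered 489 to 1380 for withdrawal against maintained, 6 to 13, 21 to 645 and 43 to 303 for 2, 4 and 8 h against withdrawal, 44 to 560, 20 to 254 and 4 to 131 for 2, 4 and 8 h against maintained, 4 to 786 for 4 h against 2 h, 0 to 10 for 8 h against 4 h and 15 to 452 for 8 h against 2 h. Differences against withdrawal ran between 1.35 and 1.65 for lead Lhx1 at 4 h, 1.03 and 1.42 for the other Lhx1 probe set at 8 h, and -0.0093 and 0.36 for lead Eomes at 2 h. At 2 h against maintained they ran between -1.10 and -0.71 for lead Lhx1, -1.01 and -0.48 for the other Lhx1 probe set, -1.09 and -0.82 for lead Eomes, and -0.85 and -0.63 for the other Eomes probe set. Uncalled differences that turned sign ran between -0.11 and 0.41 (other Lhx1) and -0.043 and 0.20 (other Eomes) at 4 h against 2 h, and -0.19 and 0.093 (lead Lhx1) at 8 h against 4 h. For Lhx1 minus Eomes they ran between -0.073 and 0.27 at 2 h and -0.098 and 0.25 at 8 h against maintained, and -0.0036 and 0.19 at 4 h and -0.11 and 0.078 at 8 h against 2 h. On withdrawal they ran between -0.071 and 0.41 for Isl2, -0.43 and 0.65 for Lhx3, -0.59 and 0.33 for Lhx6, -0.085 and 0.28 for Lmo4, -0.11 and 0.16 for Lmx1a, -0.21 and 0.061 for Ssbp4, and -0.043 and 0.22 for Tbx20.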
